A study of Mus musculus with 10 samples.

Results

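The genes described here are 10 genes of the integrated stress response that act with or below the transcription factor ATF4: Atf4 itself, Ddit3, Asns, Chac1, Trib3, Psat1, Phgdh, Shmt2, Sesn2 and Slc7a5. They were chosen by name, and each was matched through its Ensembl identifier to 1 row of a deposited table of 52096 genes. RNA was sequenced from mouse bone marrow hematopoietic stem cells, sorted by the gate CD48-CD150+LSK (LSK: no lineage markers, with Sca-1 and Kit). There were 5 libraries from mice with 1 floxed Nup214 allele and the Tie2-Cre transgene (genotype Nup214fl/+,Tie2-Cre, called HET) and 5 from mice with the floxed allele and no Cre (genotype Nup214fl/+, called FL). All 10 libraries therefore carry the floxed allele, and no group carries Cre alone, so effects of the deletion and of Cre cannot be told apart. Tie2-Cre is active in endothelial and blood cells. No label states that each library came from a separate mouse, so the p-values below measure the spread between libraries, which may be technical.

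In the integrated stress response, 4 kinases that sense different stresses phosphorylate the translation initiation factor eIF2, which slows protein synthesis and favours translation of the Atf4 mRNA through its short upstream reading frames. ATF4 then switches on genes for amino acid uptake and synthesis, for the loading of tRNAs and for redox balance, and, under lasting stress, Ddit3, which encodes the transcription factor CHOP. Because ATF4 is controlled largely at translation, the level of its mRNA does not report the amount of protein. Blood stem cells are known to keep protein synthesis low and to be sensitive to its disturbance.

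ATF4 binds, with partners of the C/EBP family, a composite element whose core can be written TGATGNAA. Windows of 300 bases around the annotated start of transcription were available from RefSeq (GRCm38.p6) for 9 of the 10 genes, all but Slc7a5. On either strand the core was found in the windows of 3 genes, Asns, Chac1 and Trib3, against 3.97% of all 32851 windows. The looser pattern TGNTGNAA, which includes the first, was found in 6 genes (Asns, Chac1, Trib3, Phgdh, Psat1 and Sesn2), against 14.8% of all windows. The cyclic AMP element TGACGTCA was in none of the 9, against 1.79% of windows, and the NF-Y element CCAAT was in 6, against 37.4%. A match is a description of letters and not a shown binding site, and a gene without a match can hold an element outside this window. The stretches below show the core in the 3 genes that hold it, the looser pattern in Psat1 and Sesn2 and the CCAAT element of Ddit3, which has neither pattern. Each runs 5′ to 3′ along the gene's own strand, and capitals mark the match.
Asns: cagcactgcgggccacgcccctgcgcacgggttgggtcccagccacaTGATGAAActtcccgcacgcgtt
Chac1: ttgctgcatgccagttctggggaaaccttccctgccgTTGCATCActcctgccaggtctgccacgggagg
Trib3: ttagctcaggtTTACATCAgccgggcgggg
Psat1: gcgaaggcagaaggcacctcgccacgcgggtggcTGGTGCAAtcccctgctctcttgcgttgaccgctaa
Sesn2: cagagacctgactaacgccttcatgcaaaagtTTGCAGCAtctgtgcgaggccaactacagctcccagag
Ddit3: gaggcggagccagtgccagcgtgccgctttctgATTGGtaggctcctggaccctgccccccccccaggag

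These stretches lie at chr6:7693210-7693279 (minus strand) for Asns, chr2:119351012-119351081 (plus) for Chac1, chr2:152344028-152344057 (minus) for Trib3, chr19:15925160-15925229 (minus) for Psat1, chr4:132510637-132510706 (minus) for Sesn2 and chr10:127290683-127290752 (plus) for Ddit3. The match in Asns reads along the gene's strand and begins 23 bases before the start of transcription. Those in Chac1 and Trib3 read on the opposite strand, 193 bases before the start and 14 bases after it. The match in Psat1 reads along the gene, 136 bases before the start, that in Sesn2 on the opposite strand, 218 bases before it, and the inverted CCAAT of Ddit3 lies 77 bases before it. These distances count from RefSeq starts, which differ from the GENCODE gene ends given below. By the GENCODE ends, the matches in Psat1 and Asns lie inside the gene and that in Trib3 lies before it. Psat1 has another RefSeq window, at chr19:15924573-15924872, which held neither ATF4 pattern.

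Nup214, the targeted gene, was lower in HET libraries, at 16.8 ± 8.89 FPKM in HET and 49.4 ± 13.4 FPKM in FL (SD, n = 5 each; exact two-sided permutation p = 0.0159). Its log2 fold change was -1.59 (SE 0.31) and did not pass in the fit across all genes (limma adjusted p = 0.472), but did without FL 5 (-1.76, adjusted p = 0.0183) and without FL 5 and HET 1 (-2.003, adjusted p = 0.000157). FPKM are fragments scaled by transcript length and by the mapped total, so levels of different genes can be set side by side. HET 1, at 31.2 FPKM of Nup214, and FL 5, at 30.0, crossed in order. The same libraries had the lowest estimated quality weights, 0.149 and 0.236 against 0.786 to 3.38 for the others. Such weights were used only in the alternative fit with quality weights, not in the fits above. Where leaving out HET 1 and FL 5 changed the call of a gene named below, its value without them is given too. The pair stood out in these same data, in Nup214 among other genes, and no label gives a reason to drop it. Adjusted p without the pair are therefore descriptions and no independent support. The median log2 fold change of all tested genes was -0.17 as deposited and 0.005 after median-ratio scaling of the columns, and differences below are on the deposited scale unless that scaling is named. Summed levels of 10 macrophage markers were 88.8 to 441.7 FPKM in HET and 229.7 to 428.4 FPKM in FL, of 10 neutrophil markers 210.0 to 764.7 and 110.7 to 307.7 FPKM, of 10 erythroid markers 1554 to 4416 and 2433 to 3338 FPKM, and of 8 plasma cell markers 129.5 to 1034 and 93.9 to 772.9 FPKM. The stem cell genes Slamf1 (CD150) and Procr averaged 3.97 ± 1.02 and 4.06 ± 1.99 FPKM in HET and 3.81 ± 1.06 and 3.45 ± 1.22 FPKM in FL. Cd48, whose protein the sort selected against, averaged 84.7 ± 22.6 FPKM in HET and 85.1 ± 11.2 FPKM in FL.

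The 10 genes spanned a wide range of levels. Phgdh, the first enzyme of serine synthesis, was the most abundant, with a mean of 343.7 FPKM over the 10 libraries. Shmt2 (107.1 FPKM) and Atf4 (87.0) followed, then Asns (55.4) and Psat1 (54.9), Ddit3 (21.1), Sesn2 (4.65), Slc7a5 (3.48), Trib3 (2.16) and Chac1 (0.548). Phgdh lay above Shmt2, Psat1 above Ddit3 and Ddit3 above Sesn2 with no overlap of their ranges over libraries. The other neighbours in this order overlapped: Asns was above Psat1 in 6 of 10 libraries, Shmt2 above Atf4 in 8, Slc7a5 above Trib3 in 8, and Atf4 above Asns in 9. The spread between libraries also differed, from a coefficient of variation of 12.4% for Psat1, 13.1% for Shmt2 and 13.95% for Phgdh to 49.5% for Slc7a5 and 55.7% for Chac1.

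No member passed the test between HET and FL. The test, for genes reaching 1 FPKM in 5 or more libraries, was by limma on log2(FPKM + 1), a scale that understates changes of low genes, with Benjamini-Hochberg adjustment over all 13041 genes and a threshold of 0.05. Chac1 was below this filter, so 9 members were tested. Of these 9, 0 passed, as did 0 of all 13041 tested genes (0%). At an unadjusted limma p under 0.05 there was 1 member, Slc7a5, lower in HET, against 10.4% of all tested genes, 8.95% lower and 1.44% higher. By mean log2 value 8 of the 9 were lower in HET and 1 was higher, with a median log2 fold change of -0.28, against -0.17 and 77.3% lower for all tested genes. After median-ratio scaling 5 of the 9 were lower and 4 higher, with a median of -0.08. No member separated the groups, which 0.506% of all tested genes did (0.284% lower in HET).

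**Figure D1:**
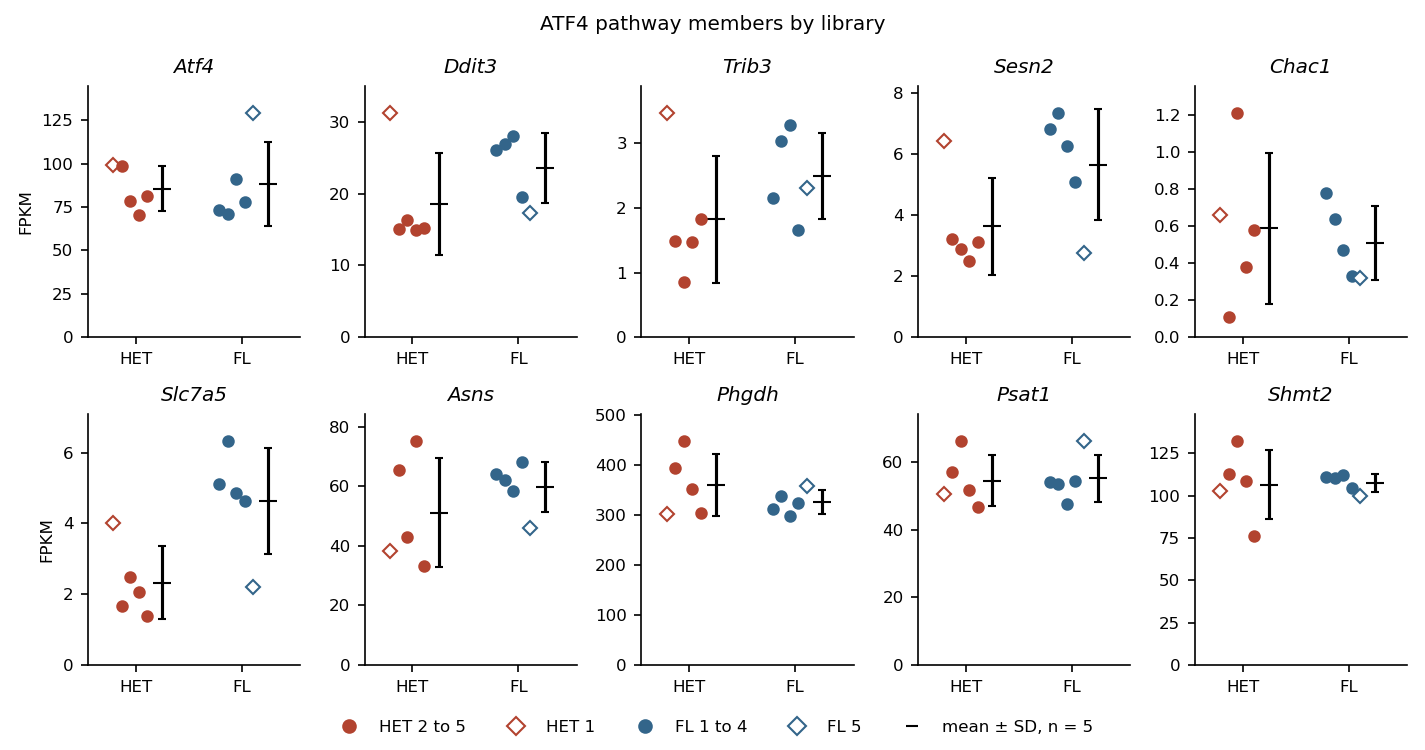
FPKM of each of the 10 genes in each library, HET left and FL right in each panel, with axes from 0 that differ between panels. Open diamonds are HET 1 and FL 5, and bars are means ± SD (n = 5). Slc7a5, Sesn2 and Ddit3 are low in HET 2 to 5 and in FL 5, while Phgdh, Psat1 and Shmt2 overlap between the groups.

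Atf4 (chromosome 15, 80255184 to 80257541 in GRCm38, plus strand), the regulator of the response, was at 98.95, 98.80, 78.5, 70.5 and 81.5 FPKM in HET 1 to 5, and at 73.0, 71.0, 91.4, 77.6 and 129.2 FPKM in FL 1 to 5. The groups overlapped throughout, and FL 5 was the highest library. The log2 fold change was -0.02 (SE 0.17, 95% CI -0.39 to 0.35, limma adjusted p = 0.954).

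Ddit3 (chromosome 10, 127290774 to 127296288, plus strand) encodes CHOP, a factor that promotes cell death when stress lasts. It was at 31.3, 15.0, 16.3, 15.0 and 15.2 FPKM in HET 1 to 5, and at 26.1, 26.96, 28.1, 19.5 and 17.3 FPKM in FL 1 to 5. HET 2 to 5 lay below every FL library, and HET 1 was the highest of all 10. The log2 fold change was -0.37 (SE 0.22, 95% CI -0.84 to 0.11, limma adjusted p = 0.494). The annotated gene overlaps the oppositely oriented tRNA synthetase gene Mars by 68 bases, Mars was at 60.7 to 77.7 FPKM, and the labels name no strand marking, so some reads of Mars could count for Ddit3. A second, overlapping GENCODE entry with the same symbol was not analysed here.

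Trib3 (chromosome 2, 152337422 to 152344032, minus strand) encodes a pseudokinase that is induced by ATF4 and CHOP and restrains them. It held 3.47, 1.49, 0.85, 1.48 and 1.83 FPKM in HET 1 to 5 and 2.15, 3.04, 3.29, 1.66 and 2.31 FPKM in FL 1 to 5. HET 2, 3 and 4 were below all FL libraries and HET 1 above them all. The log2 fold change was -0.35 (SE 0.23, 95% CI -0.86 to 0.16, limma adjusted p = 0.519).

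Sesn2 (chromosome 4, 132492032 to 132510501, minus strand) encodes a stress-induced leucine sensor that restrains the growth kinase complex mTORC1, and is also a p53 target. Its levels were 6.44, 3.22, 2.90, 2.49 and 3.13 FPKM in HET 1 to 5 and 6.81, 7.35, 6.27, 5.09 and 2.75 FPKM in FL 1 to 5. HET 2 to 5 lay below FL 1 to 4, while HET 1 lay among FL 1 to 4 and FL 5 among HET 2 to 5. Sesn2, introns included, also shares 6089 bases with Gm12981, which was at 0 to 0.87 FPKM. The HET mean was 64.3% of the FL mean, and the log2 fold change was -0.52 (SE 0.26, 95% CI -1.09 to 0.04, limma adjusted p = 0.472).

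Slc7a5 (chromosome 8, 121881150 to 121907694, minus strand) encodes LAT1, the light chain of the leucine and large neutral amino acid transporter. It had the largest log2 fold change of the 9 tested members. It was at 4.02, 1.67, 2.48, 2.05 and 1.39 FPKM in HET 1 to 5 and at 5.11, 6.34, 4.87, 4.63 and 2.21 FPKM in FL 1 to 5. Every HET library was under the median of FL, and FL 5 lay among the HET libraries. The HET mean was 50.1% of the FL mean, 2.32 ± 1.03 FPKM in HET and 4.63 ± 1.51 FPKM in FL (SD, n = 5). The log2 fold change was -0.76 (SE 0.25, 95% CI -1.32 to -0.205), with an unadjusted limma p of 0.0115 and an adjusted p of 0.472. An oppositely oriented gene, Gm20388, at 0.31 to 7.71 FPKM, overlaps Slc7a5 over 26545 bases, its whole length with introns included. Without strand marking, reads from any exonic stretch that the pair shares could not be told apart. How many exonic bases they share was not counted. Fewer cells expressing a gene and less RNA per cell cannot be told apart in these bulk libraries. Slc3a2, the heavy chain that pairs with LAT1, was at 169.3 ± 11.7 FPKM in HET and 174.8 ± 13.3 FPKM in FL (SD, n = 5), and the ratio of its level to that of Slc7a5 ran from 42.6 to 127.1 in HET libraries and from 28.9 to 85.2 in FL libraries.

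HET 1 and FL 5 were singled out by values of these same data, and leaving them out draws the groups apart. The adjusted p without them are therefore descriptive. Without HET 1 and FL 5, 4 members were called, all lower in HET. These were Slc7a5 (log2 fold change -1.11, limma adjusted p = 0.000428), Sesn2 (-0.90, adjusted p = 0.000630), Ddit3 (-0.66, adjusted p = 0.00157) and Trib3 (-0.54, adjusted p = 0.0460). In that fit 45.7% of all 13041 tested genes were called, 42.2% lower and 3.44% higher, and the median of all genes was -0.33, which is the share against which 4 of 9 members is read. Slc7a5, Sesn2 and Ddit3 then no longer overlapped between the groups, as was so for 41.9% of tested genes, 38.9% lower and 2.99% higher. Median-ratio scaling was then added to this fit, a choice made with the values known: 25.6% of all tested genes were called, 13.3% lower and 12.3% higher, Trib3 was not called (-0.28, adjusted p = 0.327), and Slc7a5 (-0.82), Sesn2 (-0.58) and Ddit3 (-0.29) were, with adjusted p of 0.00237, 0.00398 and 0.0360. The limma adjusted p for Slc7a5 was 0.000428 at its lowest and 0.863 at its highest across the alternatives, for Sesn2 0.000630 and 0.863, for Ddit3 0.00152 and 0.863, and for Trib3 0.0179 and 0.863. With sample quality weights in place of leaving libraries out, 5 members were called, these 4 lower and Phgdh higher, against 52.7% of all tested genes, 47.8% lower and 4.87% higher. Without FL 5 alone, Slc7a5 was the 1 member called (-0.95, limma adjusted p = 0.0420), when 3.14% of all tested genes were called, 2.91% lower.

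**Figure D2:**
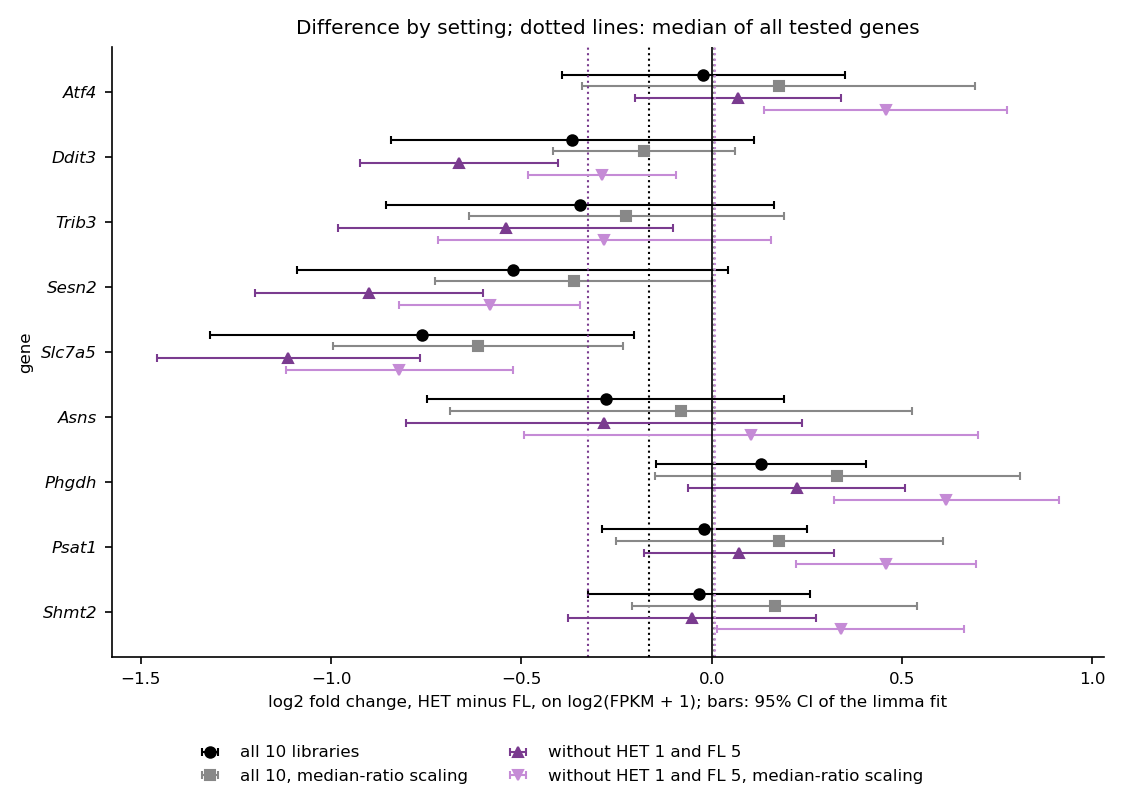
Log2 fold change, HET minus FL, of the 9 tested members with its 95% confidence interval in 4 fits, on log2(FPKM + 1). Dotted lines give the median of all 13041 genes in each fit, near 0 in both fits with median-ratio scaling. Slc7a5 is the farthest below 0 in all 4 fits, from -0.61 to -1.11, and Phgdh the farthest above, from 0.13 to 0.62.

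Summed macrophage markers were at 441.7, 255.9, 136.8, 88.8 and 97.0 FPKM in HET 1 to 5 and 397.0, 428.4, 229.7, 365.5 and 376.3 FPKM in FL 1 to 5. HET 1 was high and HET 3 to 5 were low here as for Slc7a5, Sesn2 and Ddit3, but FL 5 was not low. HET 2 also differed, with a macrophage sum above that of FL 3, while Slc7a5, Sesn2 and Ddit3 were lower in HET 2 than in FL 3. All 10 of these markers were lower in HET by mean log2 value, as were all 10 erythroid markers and 77.3% of all tested genes. No macrophage marker was at 0 in all libraries, and none passed in the 10 libraries (smallest limma adjusted p = 0.472). Without HET 1 and FL 5, 9 of the 10 macrophage markers were called lower, against 42.2% of all tested genes. In that fit 3 of the 10 neutrophil markers were called higher, against 3.44% of all tested genes. All 10 neutrophil markers and 5 of 6 tested plasma cell markers were higher in HET, again with none past the threshold. The part of these other cells in the values of Slc7a5, Sesn2, Ddit3 and Trib3 was not tested.

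Chac1 (chromosome 2, 119351229 to 119354381, plus strand) encodes a cytosolic enzyme that degrades glutathione, the cofactor with which GPX4 restrains ferroptosis. It was near the limit of detection, at 0.66, 0.11, 1.21, 0.38 and 0.58 FPKM in HET 1 to 5 and at 0.78, 0.64, 0.47, 0.33 and 0.32 FPKM in FL 1 to 5. The groups overlapped, with both the lowest and the highest library in HET. The weight of 1 fragment was judged by the most common low value, within a fixed range, of genes near 1 kilobase long. By this estimate, 1 fragment was worth about 0.045 to 0.105 FPKM in a gene of 1 kilobase. In Chac1, which is longer, that is 0.027 to 0.064 FPKM, so these levels stand for about 3 to 28 fragments per library. HET 3, the highest for Chac1, was also the library in which 1 fragment weighed most. Fitted without the filter on low values, its log2 fold change was 0.05 (95% CI -0.39 to 0.49, limma adjusted p = 0.977). Chac2, which encodes the constitutive enzyme of the same family, was at 4.34 ± 0.776 FPKM in HET and 5.0 ± 0.768 FPKM in FL (SD, n = 5; log2 fold change -0.17, limma adjusted p = 0.593).

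Asns (chromosome 6, 7675169 to 7693254, minus strand) encodes asparagine synthetase. It was at 38.35, 65.62, 43.05, 75.35 and 33.27 FPKM in HET 1 to 5 and at 64.0, 62.1, 58.4, 68.1 and 46.1 FPKM in FL 1 to 5. HET libraries lay at both ends of the range, with HET 4 the highest of all 10 and HET 5 the lowest. The SD was 18.3 FPKM in HET and 8.40 FPKM in FL, and the log2 fold change was -0.28 (SE 0.22, limma adjusted p = 0.549). The same HET 2 and HET 4 had the highest sums of erythroid markers, 4416 and 4278 FPKM, against 1739, 1554 and 1562 FPKM in HET 1, 3 and 5 and 2433 to 3338 FPKM in FL. The part of erythroid transcripts in the Asns values was not tested.

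The 3 enzymes of serine and glycine synthesis were the steadiest members. Phgdh (chromosome 3, 98313170 to 98339990, minus strand) was at 302.8, 394.8, 449.4, 353.1 and 304.3 FPKM in HET 1 to 5 and at 312.7, 337.7, 299.25, 323.7 and 359.0 FPKM in FL 1 to 5. It was the 1 tested member with a higher mean in HET, and its groups overlapped (log2 fold change 0.13, SE 0.13, 95% CI -0.15 to 0.41, limma adjusted p = 0.616). Psat1 (chromosome 19, 15904678 to 15947337, minus strand), the aminotransferase of the next step, was at 50.8, 57.2, 66.3, 51.8 and 46.8 FPKM in HET 1 to 5 and at 54.2, 53.6, 47.7, 54.4 and 66.5 FPKM in FL 1 to 5. Its log2 fold change was -0.02 (SE 0.12, 95% CI -0.29 to 0.25, limma adjusted p = 0.942). In each library Phgdh was 5.402 to 6.897 times the level of Psat1 per kilobase.

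Shmt2 (chromosome 10, 127517123 to 127522444, minus strand) encodes the mitochondrial enzyme that splits serine into glycine and a folate-bound carbon unit. It was at 102.6, 112.7, 132.6, 108.6 and 76.4 FPKM in HET 1 to 5 and at 110.9, 110.3, 112.3, 104.4 and 99.8 FPKM in FL 1 to 5. FL libraries lay close together (SD 5.28 FPKM), and HET libraries spread around them (SD 20.3 FPKM) with HET 3 the highest and HET 5 the lowest. The log2 fold change was -0.03 (SE 0.13, 95% CI -0.32 to 0.26, limma adjusted p = 0.904). Without HET 1 and FL 5, the fold changes of Phgdh, Psat1 and Shmt2 were 0.22, 0.07 and -0.05, and none passed (limma adjusted p = 0.171, 0.611 and 0.783). With median-ratio scaling added they were 0.62, 0.46 and 0.34. Phgdh and Psat1 then passed (limma adjusted p = 0.00872 and 0.0122, ranges over all alternatives to 0.867 and 0.996), as did Atf4 (0.46, adjusted p = 0.0414, range to 0.999), when 12.3% of all tested genes were called higher.

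**Figure D3:**
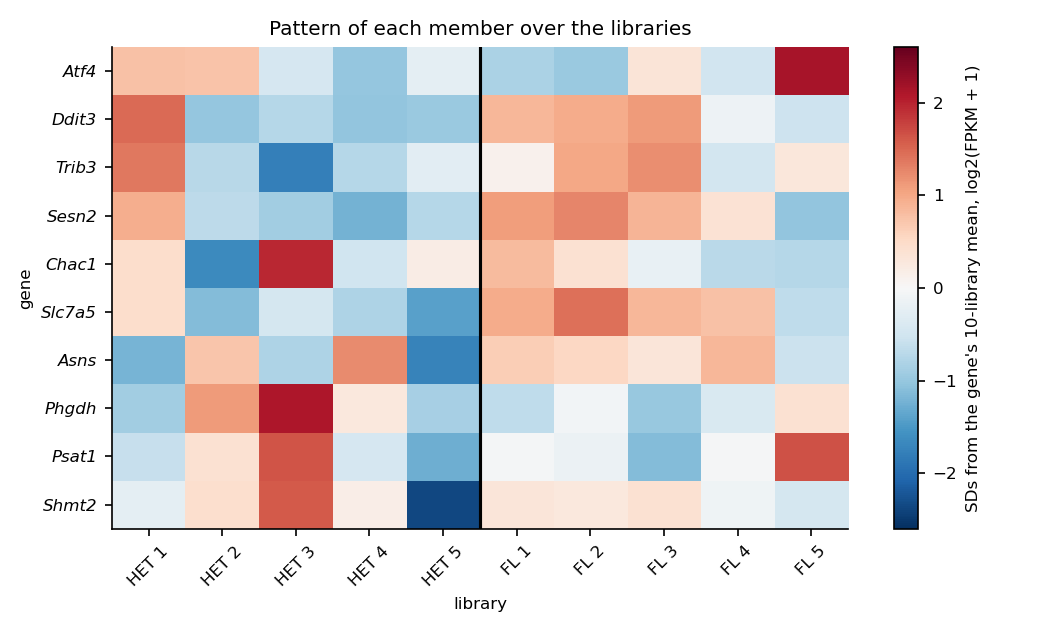
Standardised level of each gene in each library, as SDs from the gene's mean over the 10 libraries of log2(FPKM + 1), HET libraries left of the line and FL libraries right of it. Ddit3, Sesn2 and Slc7a5 share HET 1 and FL 1 to 4 as their 5 highest libraries, while Phgdh, Psat1 and Shmt2 are highest in HET 3 or FL 5.

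The members ranked the libraries in different orders. For Ddit3, Sesn2 and Slc7a5 the 5 highest libraries were HET 1 and FL 1 to 4, in differing order, and the same set of 5 was highest for 35.9% of all tested genes. Phgdh, Shmt2 and Chac1 were highest in HET 3, Atf4 and Psat1 in FL 5, Ddit3 and Trib3 in HET 1, Sesn2 and Slc7a5 in FL 2, and Asns in HET 4. HET 5 held the lowest level of 4 members (Asns, Psat1, Shmt2 and Slc7a5) and HET 4 of 3 (Atf4, Ddit3 and Sesn2). The level of Ddit3 relative to Atf4 within a library was 0.152 to 0.316 in HET and 0.134 to 0.380 in FL, with FL 5 the lowest of all.

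The genes most like Atf4 over the 10 libraries, by Pearson's r of log2(FPKM + 1) among 10641 other tested protein-coding genes, were Mknk2 (r = 0.935), which encodes a kinase of the translation factor eIF4E, Ddx3x (0.909), an RNA helicase gene, Abt1 (0.899), Rab1a (0.860), a gene of vesicle transport, and the histone gene Hist1h4b (0.848). These r are descriptions, with no p. FL 5 was the highest library for Mknk2 (17.2 FPKM), Ddx3x (48.7), Abt1 (4.93) and Rab1a (47.9), as for Atf4, and HET 2 for Hist1h4b (13.2). No other member was among these 5.

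Upstream of ATF4, the 4 kinases of eIF2 were expressed in both groups. Eif2ak1 (HRI, which senses heme) was at 16.3 ± 2.63 FPKM in HET and 17.1 ± 2.23 FPKM in FL. Eif2ak2 (PKR, double-stranded RNA) was at 7.21 ± 3.67 FPKM in HET and 9.11 ± 2.77 FPKM in FL, Eif2ak4 (GCN2, uncharged tRNA) at 4.51 ± 0.615 FPKM in HET and 4.76 ± 0.360 FPKM in FL, and Eif2ak3 (PERK, unfolded proteins of the endoplasmic reticulum) at 1.54 ± 0.488 FPKM in HET and 1.99 ± 0.495 FPKM in FL. Ppp1r15a (GADD34), the inducible subunit that directs eIF2 dephosphorylation, was at 94.0 ± 37.3 FPKM in HET and 106.4 ± 29.6 FPKM in FL, and its constitutive counterpart Ppp1r15b at 17.3 ± 0.725 FPKM in HET and 15.1 ± 2.20 FPKM in FL. Eif2b5, the catalytic subunit of eIF2B, which reloads eIF2, had the largest log2 fold change of this list, at 18.8 ± 4.74 FPKM in HET and 39.0 ± 14.3 FPKM in FL (-0.95, limma adjusted p = 0.472). It passed without FL 5 (-1.22, limma adjusted p = 0.0105) and without FL 5 and HET 1 (-1.34, adjusted p = 0.000112). Of the 14 genes of eIF2 kinases, phosphatase subunits and eIF2B, all tested, 0 passed, 13 were lower and 1 was higher by mean log2 value (median -0.22), and after median-ratio scaling 8 were lower and 6 higher (median -0.02). Without HET 1 and FL 5, 6 of the 14 were called lower, against 42.2% of all tested genes. Eif2b5 and Eif2ak2 (-0.75, limma adjusted p = 0.00345) were among these 6. With scaling added Eif2b5 was called (-0.96, adjusted p = 0.000876) and Eif2ak2 was not (-0.40, adjusted p = 0.0604), while Ppp1r15b was then called higher (0.62, adjusted p = 0.00492).

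Among factors that act beside ATF4, Atf5, itself translated under eIF2 phosphorylation, was at 0.788 ± 0.905 FPKM in HET and 2.20 ± 1.095 FPKM in FL (SD, n = 5; log2 fold change -0.86, limma adjusted p = 0.472). Atf3, a stress-induced repressor, was at 1.42 ± 1.28 FPKM in HET and 2.92 ± 1.82 FPKM in FL, Cebpg, a dimer partner of ATF4, at 5.08 ± 2.46 FPKM in HET and 6.15 ± 2.56 FPKM in FL, and Ddit4, an mTORC1 inhibitor gene, at 7.35 ± 9.35 FPKM in HET and 10.4 ± 7.61 FPKM in FL. Cebpb was below the filter, at 0 to 0.43 FPKM. Of 13 tested genes of this list of 15, 0 passed, 10 were lower and 3 higher (median -0.22), and after median-ratio scaling 7 were lower and 6 higher (median -0.06). Without HET 1 and FL 5, 5 of the 13 were called lower, against 42.2% of all tested genes. Among these 5 were Atf5 (-1.38, limma adjusted p = 0.000268) and Ddit4 (-1.64, adjusted p = 0.0485). With scaling added Atf5 was called (-1.20, adjusted p = 0.000738) and Ddit4 was not (-1.33, adjusted p = 0.132).

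**Figure D4:**
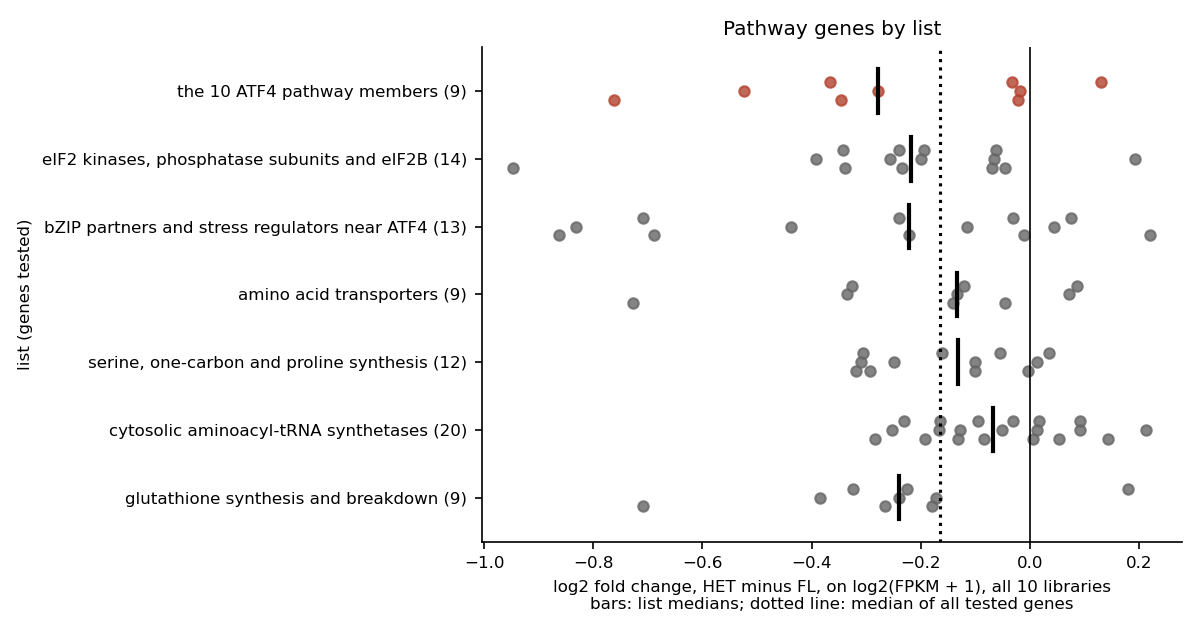
Log2 fold change, HET minus FL, of each tested gene of the members and of 6 lists of related genes, in all 10 libraries. Bars are list medians, from -0.28 for the members to -0.07 for the tRNA synthetases, and the dotted line is the median of all 13041 tested genes, -0.17.

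Amino acid transporters gave 0 calls among 9 tested of 12 (7 lower, 2 higher, median -0.13 as deposited; 5 lower, 4 higher, median -0.007 after median-ratio scaling). Slc1a5, a glutamine transporter gene, was at 74.2 ± 11.2 FPKM in HET and 80.9 ± 12.8 FPKM in FL, and Slc38a2 (SNAT2), a neutral amino acid transporter gene induced by starvation, at 45.4 ± 5.22 FPKM in HET and 42.5 ± 2.94 FPKM in FL. Slc7a11, the cystine transporter gene that ATF4 also drives, was below the filter at 0.22 to 1.29 FPKM.

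Serine, folate and proline synthesis genes gave 0 calls among 12 tested of 15 (10 lower, 2 higher, median -0.13 as deposited; 5 lower, 7 higher, median 0.05 after median-ratio scaling). Psph, which completes serine synthesis after Phgdh and Psat1, was at 17.2 ± 4.80 FPKM in HET and 21.3 ± 4.37 FPKM in FL (log2 fold change -0.31, limma adjusted p = 0.511). Mthfd2, of the mitochondrial folate pathway that Shmt2 feeds, was at 12.1 ± 2.75 FPKM in HET and 15.2 ± 2.44 FPKM in FL (-0.32, adjusted p = 0.474). The proline synthesis genes Aldh18a1 and Pycr1 were at 32.55 ± 3.86 and 6.11 ± 2.32 FPKM in HET and at 32.1 ± 2.36 and 7.75 ± 2.48 FPKM in FL. Without HET 1 and FL 5, 4 of the 12 were called lower, against 42.2% of all tested genes. Among these 4 were Psph (-0.56, limma adjusted p = 0.00674) and Pycr1 (-0.64, adjusted p = 0.0283). With scaling added neither Psph nor Pycr1 was called (-0.19 and -0.30, adjusted p = 0.180 and 0.257), and Aldh18a1 was called higher (0.37, adjusted p = 0.0321).

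All 20 tRNA synthetase genes were tested and 0 passed, with 12 lower and 8 higher (median -0.07) as deposited and 3 lower and 17 higher (median 0.13) after median-ratio scaling. Aars, for alanine, was at 17.6 ± 2.22 FPKM in HET and 20.85 ± 2.65 FPKM in FL, and Nars, for asparagine, at 88.6 ± 5.43 FPKM in HET and 88.5 ± 8.41 FPKM in FL. Glutathione synthesis and breakdown genes gave 0 calls among 9 tested of 12 (8 lower, 1 higher, median -0.24 as deposited; 7 lower, 2 higher, median -0.04 after median-ratio scaling), and Gclc, of the first step of glutathione synthesis, was at 2.78 ± 0.472 FPKM in HET and 3.71 ± 0.370 FPKM in FL (log2 fold change -0.32, limma adjusted p = 0.472). Without HET 1 and FL 5, 27 of the 77 tested genes of these 6 lists were called, all lower, against 42.2% of all tested genes called lower. Among the amino acid transporters these were 3 of 9, among the tRNA synthetase genes 4 of 20 and among the glutathione genes 5 of 9. Aars (-0.33, limma adjusted p = 0.0374) and Gclc (-0.42, adjusted p = 0.0262) were among the 27. With median-ratio scaling added 19 were called, 13 higher and 6 lower, against 12.3% and 13.3% of all tested genes. Nars (0.43, adjusted p = 0.01215), Slc3a2 (0.37, adjusted p = 0.0166) and Slc38a2 (0.48, adjusted p = 0.0108) were then called higher, and Aars and Gclc were not called (adjusted p = 0.776 and 0.571).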

How the data were processed

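RNA-seq of 10 libraries, 5 HET and 5 FL, was deposited as 1 table of FPKM values for 52096 Ensembl genes. Per the submitters' processing notes, Bowtie 0.12.9, Cufflinks 2.1.1, HTSeq, DESeq2 and the build mm10 were used by the authors, with no role or order stated. The deposited values hold no counts, so depth was estimated only roughly, from the most common low values of genes near 1 kilobase long. No count test was run. Gene identifiers were matched to GENCODE M21, all 52096 of them. Genes with 1 FPKM or more in 5 or more libraries (13041) were fitted in limma 3.58.1 (R 4.3.3) on log2(FPKM + 1), HET against FL, with Benjamini-Hochberg adjustment at 0.05. Nup214 was also tested by an exact permutation over libraries. Python 3.11.15, pandas 2.3.3 and matplotlib 3.10.9 were used for the rest. On simulated data the fit recovered 63% of changes of 1 log2 unit and 96% of changes of 2, with 9 false calls. The simulated noise was independent between genes, without the shifts shared by whole libraries in the real data, so it does not cover those. Genes named are the 10 members, Nup214, 24 fixed pathway genes and the 5 genes most like Atf4. Slamf1, Procr, Cd48, Mars and Gm20388 appear beside results they touch. The members and lists were chosen with earlier results of these data known. Alternatives were other pseudocounts and filters, median-ratio and quantile scaling, quality weights, a replicate block and left-out libraries. A RefSeq promoter window of Slc7a5 was not used here.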

Additional observations from a re-analysis of the deposited data

Results flagged for a closer look

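Ddit3 in HET 1 stood apart from the other HET libraries, at 31.27 FPKM against 14.96 to 16.29 FPKM, a gap of 0.918 of the whole range of the group. Sesn2 in HET 1 did so too, at 6.44 FPKM against 2.49 to 3.22 FPKM, a gap of 0.815 of the range. Both exceed Dixon's 95% critical value for 5 libraries. Of 22 groups screened, 2 stood apart in this way, and some groups pass this value by chance, at the rate that its 95% level sets. HET 1 was also the HET library with the highest Nup214 and with the highest sum of macrophage markers.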

How the results depend on the processing

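Members called numbered 0 in all 10 libraries, 0 to 1 with 1 library left out, 5 with quality weights, 4 without FL 5 and HET 1, and 6 when median-ratio scaling was added to that. All tested genes called numbered 1 with median-ratio scaling, 1 with quantile normalization, 6869 with quality weights, 5954 without FL 5 and HET 1, 3344 with scaling added, and 0 to 409 with 1 library left out, the highest without FL 5. Pathway genes called numbered 34 with quality weights, 27 without FL 5 and HET 1, 19 with scaling added and 0 to 2 with 1 library left out. Nup214 was at -1.955 with quality weights, -2.003 without both libraries and -1.628 with scaling added, past the threshold, and at -1.839 to -1.422 with 1 library left out.

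Some log2 fold changes changed sign. With median-ratio scaling Atf4 was 0.1762, Psat1 0.1779, Shmt2 0.1655, Eif2ak1 0.1228, Eif2ak4 0.09416, Slc3a2 0.1541 and Slc1a5 0.0772. With quantile normalization Atf4 was 0.106, Psat1 0.133, Shmt2 0.06663, Eif2ak1 0.1486, Eif2ak4 0.1198, Slc3a2 0.01673 and Chac2 0.02213. With quality weights Atf4 was 0.02377 and Psat1 0.09496. Without FL 5 and HET 1 Atf4 was 0.06833, Psat1 0.07139 and Aldh18a1 -0.0124. With scaling added Atf4 was 0.4577, Asns 0.1038, Psat1 0.4584, Shmt2 0.3388, Ppp1r15a 0.2074, Eif2ak1 0.1739, Eif2ak4 0.1984, Slc3a2 0.369, Slc1a5 0.1079, Aars 0.04572 and Chac2 0.03962; of these Atf4, Psat1 and Slc3a2 passed (limma adjusted p = 0.0414, 0.0122 and 0.0166). With 1 library left out Atf4 ran from -0.09082 to 0.123, Psat1 from -0.09076 to 0.04841, Shmt2 from -0.117 to 0.07998, Eif2ak1 from -0.1432 to 0.01124, Aldh18a1 from -0.03105 to 0.08139 and Nars from -0.04499 to 0.03931. The cause was not tested. Directions of Slc7a5, Sesn2, Ddit3, Trib3 and Phgdh were the same in all alternatives run.

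With the replicate number as a block, 0 members and 0 genes were called by limma, and 2434 genes had an unadjusted p under 0.05, against 1355 without the block. Libraries of the same number had correlations of deviations of 0.2141, -0.1717, -0.1577, 0.23 and 0.1458. Since 2 of the 5 were below 0 and no label ties the numbers, the libraries were treated as sharing only a number. That 3 of 5 matched their own number best is a hint from the data, not from the design. Low genes such as Chac1 are limited by a few fragments per library.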
